A study of Capra hircus with 24 samples.

Results

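Cholesterol synthesis genes, with the genes that sense, move, release and store sterol, were described across papilla cells of the cashmere goat hair follicle. The list holds 28 genes picked by what their products do: 8 enzymes of the mevalonate steps, 11 of the squalene and sterol steps, 4 sterol sensors and 5 proteins of transport, efflux and storage. Of these, 26 had a row under their symbol among the 20326 genes listed, and IDI1 and CYP51A1 were not analysed here. Each of the 26 reached a value of 1 in all 24 libraries, so a minimum of 1 in at least 3 libraries removed none of them. Papilla cells, which are mesenchymal, sit at the root of a follicle. RNA was sequenced from papilla cells of secondary follicles, which grow the fine cashmere, and of primary follicles, which grow coarse guard hair, of male and of female goats. Collection was in October, which the labels place in anagen, the growth phase of hair, or in June, placed in early anagen. The 8 groups, each with 3 libraries, were secondary October males, primary October males, secondary October females, primary October females, secondary June males, primary June males, secondary June females and primary June females. The labels name no treatment and no altered gene. They number the libraries of a group as biological replicates without saying whether these came from separate animals, and they do not say whether the cells had been cultured. The p-values therefore measure only the spread between libraries, which may be technical. Month, labelled growth stage and day of collection cannot be told apart.

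Animal cells build cholesterol from acetyl-CoA by way of mevalonate, farnesyl diphosphate and squalene, which is folded into lanosterol and then trimmed to cholesterol. When the membrane of the endoplasmic reticulum runs low in sterol, SCAP escorts the transcription factor encoded by SREBF2 to the Golgi, where it is cut and released to raise most genes of the pathway. When sterol is plentiful, the INSIG proteins hold SCAP back, and oxysterols switch on liver X receptors, which raise the efflux pump ABCA1. In skin, sterols serve the barrier and growing cells, and inherited defects of LSS, EBP or NSDHL affect human hair or skin.

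Deposited values were normalised signals with no unit named, summing to between 959766 and 1045876 per library, and the reads behind them are unknown. Pearson's r over genes, which do not replicate each other, was 0.993 to 0.997 within a group and 0.954 to 0.992 between groups. The cells carried fibroblast RNA, with all 8 fibroblast markers past the minimum and a summed level of 19592 to 31678, and 12 of 16 papilla markers. The papilla markers CORIN, PROM1 and HHIP stayed under 1 in every library. SOX2, another papilla marker, read 0 to 0.7 in both secondary June groups and in secondary October females. It read 10.6 to 17.9 in the other groups, secondary October males among them. Markers of pericytes and smooth muscle, 6 of 7 tested, summed to 9011 to 15336. Keratinocyte markers, 10 of 14 tested, summed to 298 to 324 in secondary October females, against 5.52 to 78.5 in the other groups. Markers of dividing cells, 12 of 12 tested, summed to 272 to 353 in October libraries, and in June to 535 to 589 in secondary libraries, against 159 to 212 in primary libraries. Of the sebocyte list, whose cells make much sterol, 3 of 10 genes were tested (summed level 70.2 to 161) and the other 7, among them AWAT1, AWAT2 and KRT79, stayed under 1 everywhere. Of the melanocyte list 5 of 6 genes stayed under 1, of the endothelial list 4 of 5, and of the leukocyte list 3 of 6, PTPRC among them. Adipocyte markers, 3 of 6 tested, summed to 11 to 17 in secondary June libraries, against 5.59 to 7.73 in the other groups. The part of these other cells in the results below was not tested. In bulk RNA, fewer cells of a type and less RNA per cell cannot be told apart.

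Most of the enzymes shared their lowest group. By group mean, 14 of the 26 genes, 12 of them among the 17 enzymes measured, were at their lowest in primary June males. The highest mean was in secondary October females for 11 genes and in primary October females for 7. In which groups all genes tested had their lowest and highest means was not counted. The span between the highest and the lowest group mean, on the log2(value + 1) scale, was largest for INSIG1, at 2.62, followed by MSMO1 at 2.18 and HMGCS1 at 2.03, and smallest for NPC1 at 0.48 and GGPS1 at 0.23.

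**Figure D1:**
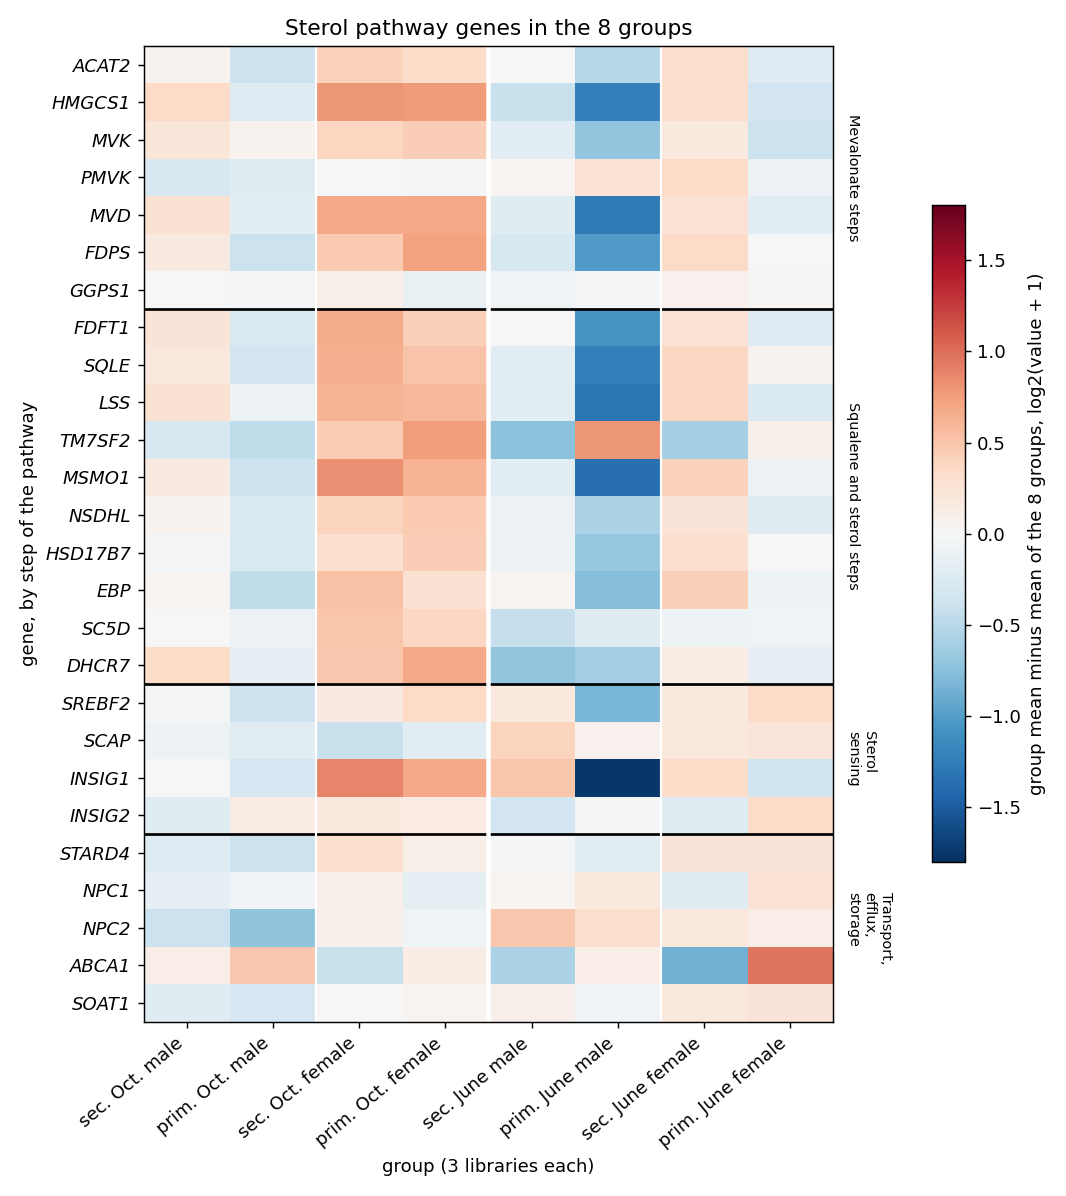
Group means of the 26 genes, in rows by step of the pathway, against the 8 groups in columns; the colour is the group mean minus the mean of the 8 groups on the log2(value + 1) scale, red above and blue below. Primary June males have the lowest mean of 12 of the 17 enzymes and of INSIG1, both October female columns are red for most enzymes, and TM7SF2 and ABCA1 are among the genes that are lowest in other groups.

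Among the mevalonate steps, HMGCS1, the cytosolic HMG-CoA synthase that makes the precursor of mevalonate, had the largest log2 span. Its October values were 117, 118 and 120 in secondary male libraries, against 78.2, 80.5 and 78.3 in primary male ones, and 171, 161 and 156 in secondary female libraries, against 166, 161 and 154 in primary female ones. In June they were 71.9, 70.2 and 69.2 in secondary male libraries, against 38.7, 35.2 and 43.3 in primary male ones, and 115, 118 and 114 in secondary female libraries, against 71.1, 74.5 and 74.1 in primary female ones. Both female October groups lay above every other library and primary June males below every other group. MVD, the decarboxylase that ends the mevalonate steps in isopentenyl diphosphate, read in October 32.7, 26.5 and 29.2 in secondary male libraries, against 21.9, 20.6 and 19.6 in primary male ones, and 33.7, 41.1 and 42.6 in secondary female libraries, against 44.6, 33.1 and 41.5 in primary female ones. The June values of MVD were 20.2, 21.2 and 19.8 in secondary male libraries, against 8.57, 10.2 and 9.34 in primary male ones, and 27, 27.6 and 32.6 in secondary female libraries, against 19.6, 17.9 and 25.1 in primary female ones. Here too primary June males were lowest and both female October groups highest, without overlap with the rest. FDPS, farnesyl diphosphate synthase, which feeds both sterols and other isoprenoids, stood in October at 119, 117 and 116 in secondary male libraries, against 76.3, 79.5 and 85.8 in primary male ones, and 144, 154 and 144 in secondary female libraries, against 188, 161 and 175 in primary female ones. FDPS in June stood at 86.7, 83.5 and 86.8 in secondary male libraries, against 52.8, 52.6 and 49.7 in primary male ones, and 133, 132 and 134 in secondary female libraries, against 101, 104 and 110 in primary female ones. All 3 primary October female libraries exceeded every other library, while in October males every secondary library exceeded every primary one.

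GGPS1, geranylgeranyl diphosphate synthase, takes farnesyl diphosphate away from sterols towards protein prenylation, and it had the smallest span. Its October values were 26, 29.5 and 25 in secondary male libraries, against 22.9, 30.4 and 26.2 in primary male ones, and 30.7, 26.4 and 28.9 in secondary female libraries, against 22.3, 27.6 and 23 in primary female ones. Its June values were 27.4, 26.3 and 23.3 in secondary male libraries, against 28.1, 24.9 and 26.1 in primary male ones, and 27.2, 30 and 27.6 in secondary female libraries, against 28.4, 28.4 and 24.8 in primary female ones. Each group overlapped the next in the order of means, and GGPS1 was not called in any comparison here. ACAT2, the thiolase that joins acetyl-CoA units, ran from 30.1 to 63.8 over the libraries with a median of 48.6, with the lowest mean in primary June males. MVK, mevalonate kinase, ran from 5.36 to 16.8 with a median of 11.1, again lowest in primary June males. PMVK, the next kinase, ran from 7.42 to 13.3 with a median of 9.79. Its mean was highest in secondary June females and lowest in secondary October males.

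The first enzymes of the squalene steps were also lowest in primary June males. FDFT1, squalene synthase, commits farnesyl diphosphate to sterols, and its October values were 55.8, 54.4 and 55.5 in secondary male libraries, against 36.9, 37.8 and 40.3 in primary male ones, and 71.2, 78.8 and 74.6 in secondary female libraries, against 63.9, 58.7 and 66.8 in primary female ones. In June FDFT1 had 46.5, 43.5 and 49.4 in secondary male libraries, against 21.2, 22.4 and 22.1 in primary male ones, and 59.4, 55.2 and 54.1 in secondary female libraries, against 39.2, 38.5 and 42.2 in primary female ones. Secondary October females were highest and primary June males lowest, each apart from every other library. SQLE, squalene epoxidase, a rate-limiting enzyme of the pathway, had 36, 34.7 and 35.1 in secondary male libraries, against 22.5, 25 and 24.6 in primary male ones, and 50.2, 48.6 and 47.9 in secondary female libraries, against 46.9, 45.5 and 41.8 in primary female ones in October. In June SQLE had 27, 26 and 27.1 in secondary male libraries, against 12.4, 13 and 12.1 in primary male ones, and 40.2, 40.7 and 39.7 in secondary female libraries, against 31.9, 34 and 30.3 in primary female ones. The extremes were the same groups, again without overlap. LSS, lanosterol synthase, which closes the rings, showed 18.9, 17 and 16.7 in secondary male libraries, against 12.9, 13.7 and 13.3 in primary male ones, and 21.7, 22.1 and 22.9 in secondary female libraries, against 21.4, 19.5 and 24.8 in primary female ones in October. Its June values were 12, 12.5 and 12.7 in secondary male libraries, against 4.75, 5.9 and 4.86 in primary male ones, and 18.6, 19.2 and 18.2 in secondary female libraries, against 11.8, 11 and 12.6 in primary female ones. The female October groups overlapped each other and lay above the rest, and primary June males lay below the rest.

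Of the enzymes that trim lanosterol, MSMO1, the methylsterol monooxygenase, had the widest span. In October it read 105, 108 and 101 in secondary male libraries, against 73.5, 73.1 and 67.5 in primary male ones, and 188, 153 and 159 in secondary female libraries, against 149, 160 and 125 in primary female ones. In June it read 89.4, 85.3 and 69.5 in secondary male libraries, against 35, 37.5 and 34.8 in primary male ones, and 124, 126 and 123 in secondary female libraries, against 87.1, 94.2 and 78.7 in primary female ones. Primary June males lay apart below all other libraries, and the female October groups overlapped. EBP, the isomerase that shifts a ring double bond, read 79, 72.4 and 77.3 in secondary male libraries, against 54.1, 52 and 54.1 in primary male ones, and 114, 111 and 98.5 in secondary female libraries, against 91.3, 81.8 and 95.7 in primary female ones in October. Its June values were 73.3, 78.5 and 78.8 in secondary male libraries, against 44.5, 42.4 and 42 in primary male ones, and 99.2, 101 and 98 in secondary female libraries, against 68.3, 70.4 and 69 in primary female ones. In all 4 pairs of month and sex every secondary library exceeded every primary library. DHCR7, the reductase of a final step, read 34.6, 32.8 and 31.6 in secondary male libraries, against 23.6, 24 and 22.7 in primary male ones, and 35.6, 37.3 and 38.7 in secondary female libraries, against 44.6, 37.7 and 45.5 in primary female ones in October. The values of DHCR7 in June were 15.1, 16.1 and 15.4 in secondary male libraries, against 15.4, 17.4 and 17.6 in primary male ones, and 29.9, 28.2 and 28.6 in secondary female libraries, against 23.7, 21.6 and 25.6 in primary female ones. Both male June groups overlapped and lay below all October libraries.

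TM7SF2, a sterol reductase acting early after lanosterol, was lowest in another group, secondary June males. Its October values were 3.98, 3.65 and 4.06 in secondary male libraries, against 2.88, 3.83 and 3.36 in primary male ones, and 6.69, 7.22 and 7.82 in secondary female libraries, against 8.93, 8.79 and 9.58 in primary female ones. In June they were 2.6, 2.61 and 2.55 in secondary male libraries, against 9.55, 9.05 and 9.36 in primary male ones, and 3.14, 2.9 and 2.82 in secondary female libraries, against 5.76, 4.65 and 5.93 in primary female ones. Primary June males, the lowest group for 12 of the 17 enzymes, shared the highest TM7SF2 values with primary October females, and both secondary June groups were among the lowest. NSDHL and HSD17B7, which act with MSMO1 in taking methyl groups off the ring, had their highest means in primary October females and their lowest in primary June males. NSDHL ran from 15.7 to 37.4 with a median of 25.9, and HSD17B7 from 2.01 to 6.45 with a median of 4.21. SC5D, a desaturase near the end of the pathway, ran from 33.7 to 77.9 with a median of 46, highest in secondary October females and lowest in secondary June males.

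Among the sensors, INSIG1, the retention protein that is itself raised by the factor it restrains, had the widest span of all 26 genes. In October INSIG1 stood at 33.5, 32.9 and 33.4 in secondary male libraries, against 25.5, 27.8 and 26.9 in primary male ones, and 53, 69.9 and 63.4 in secondary female libraries, against 56.6, 46.7 and 60.5 in primary female ones. In June INSIG1 stood at 47.1, 49.5 and 45.7 in secondary male libraries, against 8.1, 8.84 and 10.9 in primary male ones, and 40.5, 42.6 and 43.2 in secondary female libraries, against 23.5, 25.7 and 28.4 in primary female ones. Primary June males fell short of every other library, while both secondary June groups exceeded all male October libraries. SREBF2, which encodes the transcription factor itself, stood in October at 55.5, 51.6 and 55 in secondary male libraries, against 41.9, 41.7 and 43.7 in primary male ones, and 58.9, 62.9 and 63.7 in secondary female libraries, against 70.7, 65.3 and 77 in primary female ones. The June values of SREBF2 were 59.9, 60.8 and 65.8 in secondary male libraries, against 31.4, 32.1 and 28.3 in primary male ones, and 61.3, 61.3 and 64.3 in secondary female libraries, against 68, 66.5 and 75.4 in primary female ones. Primary June males were again below all others, and in females of either month every secondary library lay below every primary one.

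SCAP, the escort protein, read 24.5, 21.2 and 22.6 in secondary male libraries, against 21.6, 19.4 and 21.6 in primary male ones, and 16, 19.4 and 18.9 in secondary female libraries, against 20.8, 19 and 23.6 in primary female ones in October. In June it was 30.2, 32.7 and 33.9 in secondary male libraries, against 25.8, 26.5 and 24.9 in primary male ones, and 28.1, 27.2 and 27.7 in secondary female libraries, against 28.8, 25.5 and 31.6 in primary female ones. Within each follicle type and sex every October library lay below every June library. INSIG2, a retention protein that is not under the same sterol feedback as INSIG1, had October values of 59.3, 57.5 and 59.9 in secondary male libraries, against 75.8, 76.8 and 74.3 in primary male ones, and 79.3, 79.4 and 75.5 in secondary female libraries, against 75.3, 85.1 and 69.1 in primary female ones. Its values in June were 60.1, 50.6 and 51.2 in secondary male libraries, against 62.5, 68.3 and 68.8 in primary male ones, and 59.6, 59.7 and 58.1 in secondary female libraries, against 84.2, 90.8 and 87.3 in primary female ones. Secondary lay below primary without overlap in males of both months and in June females.

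Of the transport genes, ABCA1, the pump that hands cholesterol to apolipoproteins, varied most. Its October values were 3.96, 3.96 and 4.2 in secondary male libraries, against 5.11, 5.59 and 5.61 in primary male ones, and 2.38, 2.85 and 2.29 in secondary female libraries, against 3.72, 4.58 and 4 in primary female ones. The June values of ABCA1 were 1.98, 2.24 and 2.16 in secondary male libraries, against 4.09, 4.08 and 3.93 in primary male ones, and 1.66, 1.42 and 1.56 in secondary female libraries, against 8.6, 8.59 and 7.03 in primary female ones. Every secondary library lay below every primary library of the same month and sex, and primary June females lay above all others. NPC1, the membrane protein that lets cholesterol out of lysosomes, had a small span. It read 18.9, 17.9 and 17.5 in secondary male libraries, against 19.5, 20.6 and 18.3 in primary male ones, and 20.9, 21.7 and 22.2 in secondary female libraries, against 17.2, 16.6 and 20.2 in primary female ones in October. In June NPC1 read 20.6, 20.8 and 21 in secondary male libraries, against 23, 23.9 and 22.6 in primary male ones, and 17.1, 16.9 and 17.3 in secondary female libraries, against 24.1, 24.2 and 24.6 in primary female ones. Secondary lay below primary without overlap in June females and June males, and above it without overlap in October females. NPC2, the soluble partner that passes cholesterol to NPC1, ran from 226 to 545 with a median of 402, highest in secondary June males and lowest in primary October males. STARD4, which carries cholesterol between membranes, ran from 19.9 to 37.1 with a median of 27.6. SOAT1, which esterifies cholesterol for storage in droplets, ran from 17 to 26.5 with a median of 21.5. STARD4 and SOAT1 had overlapping neighbours along nearly the whole order of groups.

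**Figure D2:**
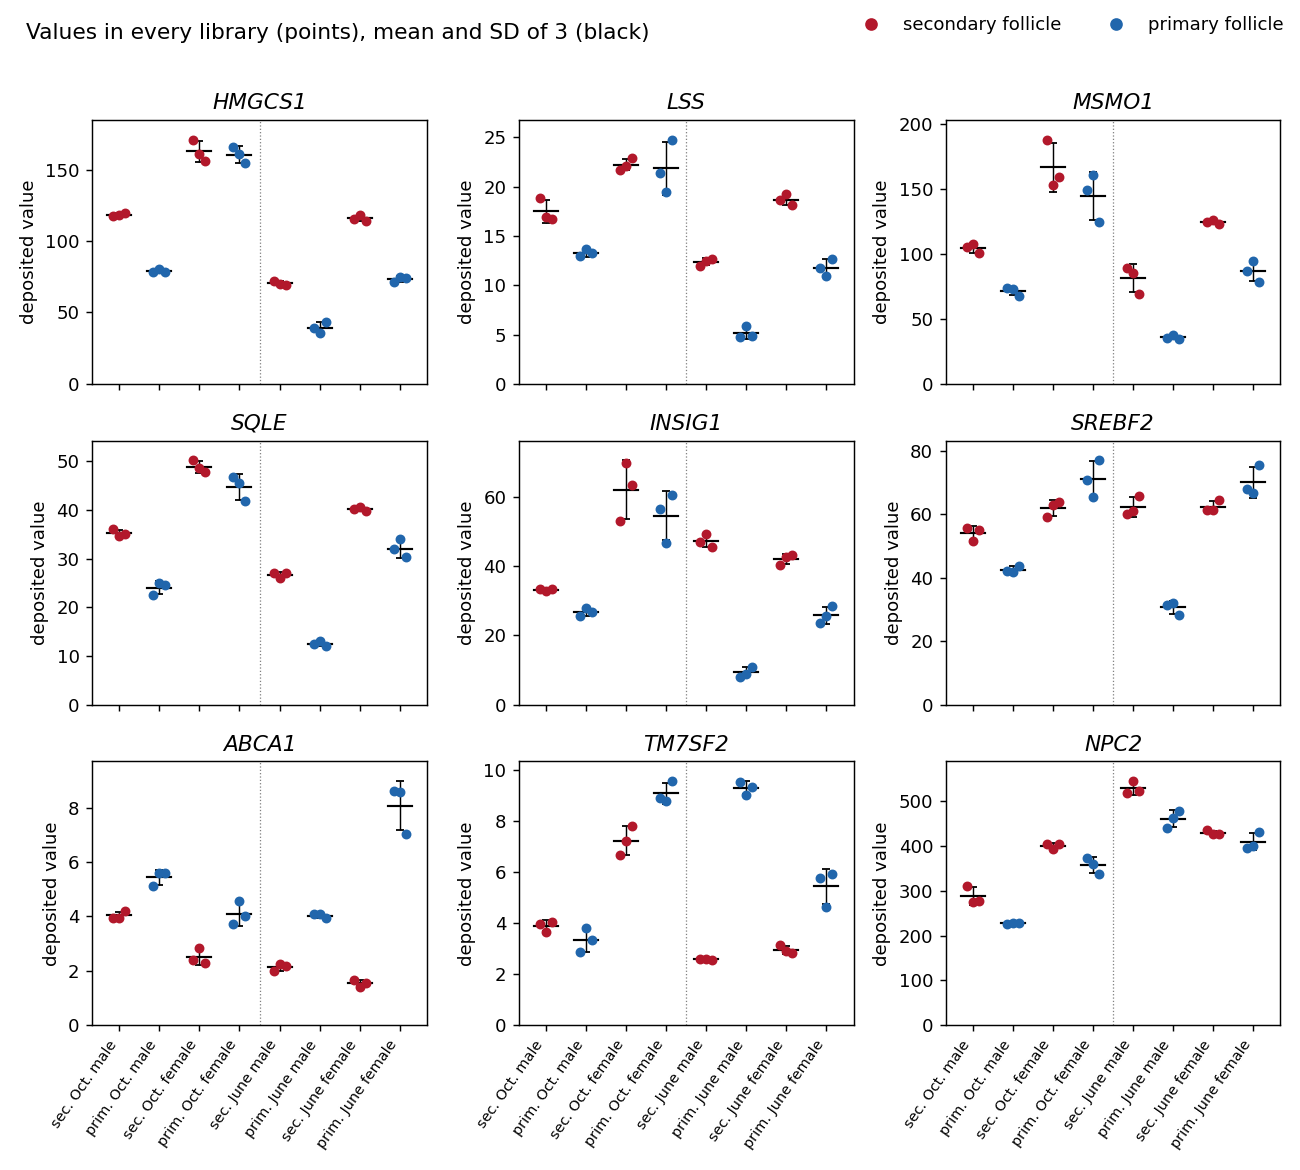
Deposited value (y axis, normalised signal, from 0) of 9 genes in every library, by group on the x axis; red points are secondary and blue points primary follicles, and black lines give the mean and SD of 3 libraries, with October left of the dotted line and June right of it. HMGCS1, LSS, MSMO1, SQLE, INSIG1 and SREBF2 have their lowest points in primary June males, TM7SF2 has high ones there, and ABCA1 is lower in secondary than in primary cells in all 4 pairs.

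In June, secondary papilla cells had more RNA of most cholesterol enzymes than primary papilla cells, in both sexes, and less of ABCA1 and INSIG2. Of the 26 genes 16 were called higher and 5 lower in males at a limma adjusted p under 0.05 (Benjamini-Hochberg over the 13049 genes tested), with a median log2 difference of 0.49. In the same comparison 30.7% of all genes tested were called higher and 28.9% lower, or 38.8% and 21.6% with libraries rescaled to a common total. After this rescaling 18 of the 26 genes were called higher and 3 lower in males. In females 15 were called higher and 5 lower, with a median of 0.30, while 25% of all genes tested were called higher and 24.3% lower. The median over all genes was 0.01 in males and 0.00 in females. Of the 17 enzymes, 12 were higher and 2 lower in males, and 14 and 1 in females. Called higher in both sexes were 13 genes, namely ACAT2, HMGCS1, MVK, MVD, FDPS, FDFT1, SQLE, LSS, MSMO1, NSDHL, HSD17B7, EBP and INSIG1, and called lower in both were TM7SF2, INSIG2, NPC1 and ABCA1. Calls shared by both sexes were not counted among all genes tested. INSIG1 had the largest difference in males, a log2 difference of 2.24 (SE 0.099, limma adjusted p = 6.31e-15), and the largest positive one in females, 0.69 (SE 0.099, limma adjusted p = 4.94e-06). Among the enzymes of males the largest differences were those of MSMO1, 1.16 (SE 0.092, limma adjusted p = 2.44e-10), LSS, 1.12 (SE 0.076, limma adjusted p = 1.6e-11), and TM7SF2, -1.52 (SE 0.082, limma adjusted p = 2.24e-13). In females HMGCS1 led the enzymes that were higher, at 0.66 (SE 0.053, limma adjusted p = 5.3e-10), and TM7SF2 was lower by a log2 difference of -0.70. The log2 differences of the other enzymes called in males were ACAT2 (0.51), HMGCS1 (0.84), MVK (0.53), MVD (1.05), FDPS (0.72), FDFT1 (1.05), SQLE (1.04), NSDHL (0.47), HSD17B7 (0.59) and EBP (0.83) on the higher side and that of SC5D was -0.21. In females they were ACAT2 (0.53), MVK (0.55), PMVK (0.44), MVD (0.47), FDPS (0.34), FDFT1 (0.48), SQLE (0.32), LSS (0.62), MSMO1 (0.52), NSDHL (0.44), HSD17B7 (0.28), EBP (0.51) and DHCR7 (0.28).

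The sensors did not move together between follicle types in June. SREBF2 was higher in secondary males, at a log2 difference of 1.00 (SE 0.061, limma adjusted p = 2.65e-12), and lower in secondary females, at -0.16 (SE 0.061, limma adjusted p = 0.0321). SCAP was called higher in males (0.31) and had a difference of -0.04 in females, which was not called. INSIG2 was called lower in both sexes, at -0.30 in males and -0.55 in females. ABCA1 was lower in secondary cells by a log2 difference of -0.69 (SE 0.081, limma adjusted p = 1.57e-07) in males and -1.83 (SE 0.081, limma adjusted p = 1.46e-14) in females. NPC1 had -0.15 in males and -0.48 in females, and NPC2 was called higher in males, at 0.20, with 0.07 in females. STARD4 and SOAT1 were not called in either sex. Beside these calls, the markers of dividing cells had 12 of 12 higher and 0 lower in males and 12 of 12 higher and 0 lower in females. Keratinocyte markers had 3 of 10 higher and 7 lower in males and 1 of 10 higher and 1 lower in females, and markers of pericytes and smooth muscle 0 of 6 higher and 6 lower in males and 1 of 6 higher and 2 lower in females. Fibroblast markers had 4 of 8 higher and 4 lower in males and 1 of 8 higher and 6 lower in females. Papilla markers had 2 of 12 higher and 7 lower in males and 5 of 12 higher and 5 lower in females, and leukocyte markers 3 of 3 higher and 0 lower in males and 0 of 3 higher and 1 lower in females. Adipocyte markers had 2 of 3 higher and 1 lower in males and 2 of 3 higher and 0 lower in females. The part of these cells in the result was not tested. NPC1 in males lost its limma call without secondary June male 1 or 2 or 3 or primary June male 1 or 2 (-0.15 to -0.13, adjusted p = 0.0557 to 0.109) and with libraries rescaled to a common total (-0.06, adjusted p = 0.389). SC5D in males lost its limma call without secondary June male 3 (-0.15, adjusted p = 0.0938) and with libraries rescaled to a common total (-0.12, adjusted p = 0.175). HSD17B7 in females lost its limma call without secondary June female 1 or primary June female 1 or 3 (0.21 to 0.24, adjusted p = 0.0896 to 0.133). SREBF2 in females lost its limma call without secondary June female 1 or 2 or primary June female 3 (-0.15 to -0.11, adjusted p = 0.088 to 0.178) and with no filter on low values (-0.16, adjusted p = 0.0535).

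In October most enzymes were higher in secondary than in primary cells of males, and in females most did not pass the test. Of the 26 genes 14 were called higher and 2 lower in males, with a median log2 difference of 0.32, and 10.9% of all genes tested were called higher and 7.63% lower, or 5.69% and 15.4% with libraries rescaled to a common total. Rescaled, the list had 13 higher and 3 lower in males. In females 4 were called higher and 5 lower, with a median of 0.02, and 18.3% of all genes tested were called higher and 17.2% lower. The female shares of the list were thus near those of all genes. The female counts moved with single libraries, to 7 higher without primary October female 2, and to 3 lower without secondary October female 1 or primary October female 3, and to 2 higher and 3 lower with the compared groups alone. Of the 17 enzymes, 11 were higher and 0 lower in males, against 2 and 3 in females. The male calls on the higher side were ACAT2 (0.45), HMGCS1 (0.58), MVD (0.48), FDPS (0.54), FDFT1 (0.52), SQLE (0.54), LSS (0.37), MSMO1 (0.55), NSDHL (0.33), EBP (0.50), DHCR7 (0.47), SREBF2 (0.34), INSIG1 (0.30) and NPC2 (0.34), and those on the lower side were INSIG2 (-0.36) and ABCA1 (-0.35). In females the genes called higher were FDFT1 (0.24), EBP (0.26), NPC1 (0.26) and NPC2 (0.17), and those called lower were FDPS (-0.24), TM7SF2 (-0.29), DHCR7 (-0.19), SREBF2 (-0.19) and ABCA1 (-0.54). FDPS was higher in secondary males, at 0.54 (SE 0.052, limma adjusted p = 6.21e-08), and lower in secondary females, at -0.24 (SE 0.052, limma adjusted p = 0.000783). DHCR7 and SREBF2 were likewise called in opposite directions in the sexes. HMGCS1 was called in males, at 0.58 (SE 0.053, limma adjusted p = 2.72e-08), and had 0.02 (SE 0.053, limma adjusted p = 0.815) in females. Keratinocyte markers had 1 of 10 higher and 4 lower in males and 9 of 10 higher and 0 lower in females, and markers of dividing cells 7 of 12 higher and 0 lower in males and 0 of 12 higher and 7 lower in females. Fibroblast markers had 3 of 8 higher and 2 lower in males and 6 of 8 higher and 1 lower in females. The 13 mitochondrial genes took 9.55 to 10.3% of the summed values in secondary males, against 9.37 to 9.72% in primary males, and 11.2 to 12.7% in secondary females, against 10.3 to 10.8% in primary females. The part of these measures in the results was not tested. Over the 4 comparisons of follicle type, EBP and FDFT1 were called higher and ABCA1 lower in all, and GGPS1, STARD4 and SOAT1 in none. The matching shares of all genes tested were not counted. INSIG1 in males lost its limma call without secondary October male 1 or 2 or 3 or primary October male 1 or 2 or 3 (0.27 to 0.33, adjusted p = 0.0526 to 0.122), with no filter on low values (0.30, adjusted p = 0.0873) and with libraries rescaled to a common total (0.22, adjusted p = 0.109). DHCR7 in females lost its limma call without secondary October female 1 or 2 or primary October female 1 or 3 (-0.19 to -0.14, adjusted p = 0.0726 to 0.165), with no filter on low values (-0.19, adjusted p = 0.0601) and with the compared groups alone (-0.19, adjusted p = 0.163). SREBF2 in females lost its limma call without secondary October female 1 or primary October female 3 (-0.16 to -0.13, adjusted p = 0.0798 to 0.114) and with the compared groups alone (-0.19, adjusted p = 0.119). NPC2 in females lost its limma call without primary October female 3 (0.13, adjusted p = 0.0533) and with the compared groups alone (0.17, adjusted p = 0.0958). NPC1 in females lost its limma call with the compared groups alone (0.26, adjusted p = 0.0697).

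**Figure D3:**
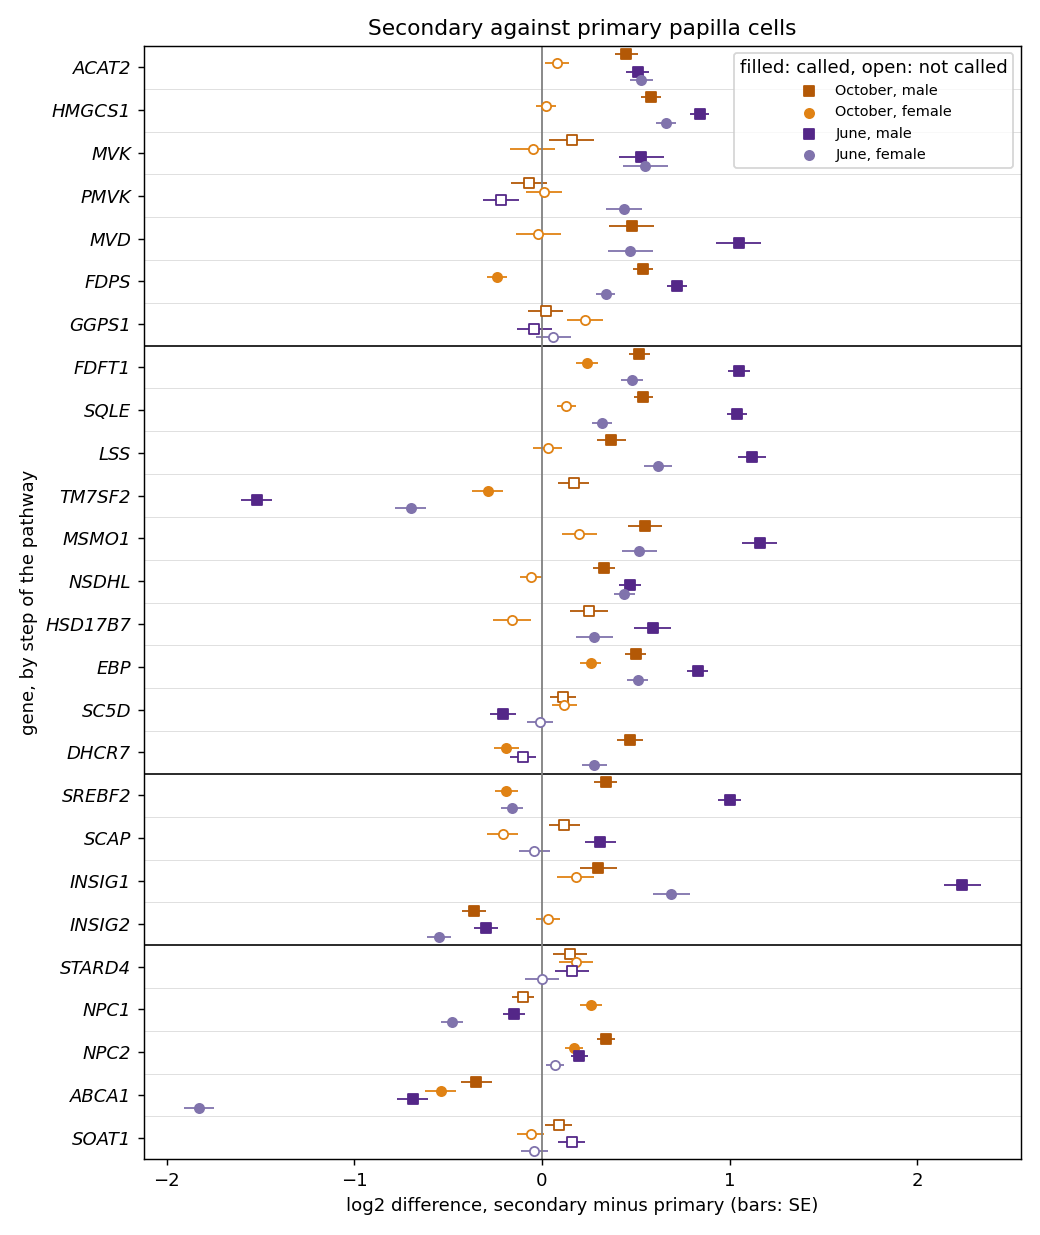
Log2 difference of secondary minus primary cells (x axis, log2(value + 1) scale, bars give the SE) for the 26 genes (y axis, by step of the pathway) in the 4 combinations of month and sex; filled points passed the limma test and open points did not. INSIG1 in June males lies farthest right, at 2.24, ABCA1 in June females farthest left, at -1.83, and most October female points lie near 0.

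Whether the follicle types differed by month was tested as the October difference minus the June difference. In males 4 of the 26 genes had a positive and 9 a negative interaction, where 21.6% and 22.3% of all genes did, or 11.9% and 37.8% with libraries rescaled to a common total; the rescaled counts of the list were 2 and 15. In females 4 were positive and 14 negative, where 20.7% and 19.5% of all genes were. Leaving out each library of these female groups in turn gave 11 to 13 negative ones. The negative calls of females were ACAT2 (-0.45), HMGCS1 (-0.64), MVK (-0.60), PMVK (-0.43), MVD (-0.49), FDPS (-0.58), FDFT1 (-0.24), SQLE (-0.19), LSS (-0.59), NSDHL (-0.51), HSD17B7 (-0.44), EBP (-0.25), DHCR7 (-0.47) and INSIG1 (-0.50). The largest negative interaction of males was that of INSIG1, -1.94 (SE 0.14, limma adjusted p = 1.28e-10), followed by LSS, -0.75 (SE 0.11, limma adjusted p = 5.41e-06), SREBF2, -0.66 (SE 0.087, limma adjusted p = 1.71e-06), and MSMO1, -0.61 (SE 0.13, limma adjusted p = 0.000541). TM7SF2 had the largest positive one, 1.70 (SE 0.12, limma adjusted p = 4.78e-11) in males, where the difference between follicle types was 0.17, not called, in October and -1.52 in June. In females ABCA1 was positive, at 1.29 (SE 0.11, limma adjusted p = 4.58e-09), where its difference between follicle types was -0.54 in October and -1.83 in June. FDFT1 in females lost its limma call without secondary June female 1 or primary June female 2 or secondary October female 1 or primary October female 3 (-0.22 to -0.20, adjusted p = 0.0557 to 0.0668) and with the compared groups alone (-0.24, adjusted p = 0.058). SQLE in females lost its limma call without secondary June female 1 or 2 or 3 or primary June female 1 or 3 or secondary October female 2 or 3 or primary October female 1 or 2 (-0.20 to -0.15, adjusted p = 0.0516 to 0.108) and with the compared groups alone (-0.19, adjusted p = 0.0952). HSD17B7 in females lost its limma call without secondary June female 1 or secondary October female 2 (-0.39 to -0.37, adjusted p = 0.0511 to 0.0591). MVD in females lost its limma call without secondary June female 3 or primary June female 1 or 2 or secondary October female 1 or primary October female 1 (-0.45 to -0.39, adjusted p = 0.0518 to 0.0714), with no filter on low values (-0.49, adjusted p = 0.0578) and with the compared groups alone (-0.49, adjusted p = 0.0595). EBP in females lost its limma call without secondary October female 3 (-0.19, adjusted p = 0.0545) and with the compared groups alone (-0.25, adjusted p = 0.0517). PMVK in females lost its limma call without primary October female 3 (-0.32, adjusted p = 0.0512).

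Whether the follicle types differed by sex was tested as the male difference minus the female difference. In October 14 of the 26 genes had a positive and 2 a negative interaction, with 13.7% and 13% among all genes, or 9.46% and 18.5% with libraries rescaled to a common total; rescaling left 8 positive and 2 negative calls in the list, and leaving out secondary October male 1 left 9 positive ones. In June 13 were positive and 3 negative, with 20.9% and 20.4% among all genes, or 28.2% and 13.6% with libraries rescaled to a common total. Rescaling gave 17 positive and 3 negative calls in the list in June. In October the largest were FDPS, 0.78 (SE 0.073, limma adjusted p = 2.06e-08), DHCR7, 0.66 (SE 0.097, limma adjusted p = 1.36e-05), and HMGCS1, 0.56 (SE 0.074, limma adjusted p = 3.78e-06). In June INSIG1 had 1.56 (SE 0.14, limma adjusted p = 5.52e-09), SREBF2 1.16 (SE 0.087, limma adjusted p = 2.49e-10) and ABCA1 1.14 (SE 0.11, limma adjusted p = 3.26e-08). SQLE (0.41 in October and 0.72 in June) and FDFT1 (0.27 and 0.57) had a larger secondary excess in males in either month. TM7SF2 had 0.47 in October and -0.82 in June. FDFT1 in October lost its limma call with libraries rescaled to a common total (0.19, adjusted p = 0.0634).

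October cells had more RNA of most cholesterol enzymes than June cells in both follicle types and both sexes, and less SCAP. In secondary cells 13 of the 26 genes were called higher and 7 lower in males, with a median log2 difference of 0.15, where 25.3% of all genes tested were called higher and 31.2% lower, or 17.8% and 38.9% with libraries rescaled to a common total. The list then had 12 higher and 8 lower in these males. In secondary females 15 were higher and 3 lower, with a median of 0.23, where 24.2% of all genes tested were called higher and 27.1% lower. In primary cells 16 were higher and 6 lower in males, with a median of 0.33, where 26% of all genes tested were called higher and 29.5% lower, or 35.3% and 22.7% with libraries rescaled to a common total. Rescaling gave 18 higher and 5 lower in the list in primary males. In primary females 16 were higher and 6 lower, with a median of 0.46, where 22.7% of all genes tested were called higher and 25.6% lower. Of the 17 enzymes 12 were higher and 1 lower in secondary males, 11 and 1 in secondary females, 12 and 2 in primary males, and 15 and 0 in primary females. Higher in all 4 comparisons were HMGCS1, MVD, FDPS, FDFT1, SQLE, LSS, MSMO1, NSDHL and DHCR7, and lower in all 4 were SCAP and SOAT1, while GGPS1 and STARD4 were not called in any. How many of all genes tested were called alike in all 4 was not counted. With libraries rescaled to a common total, SOAT1 kept its call in secondary males alone. It lost the call in secondary females, primary males and primary females (limma adjusted p = 0.0607 to 0.0948). The 4 month comparisons share no library with each other, but they share the estimate of the spread and the same months of collection.

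HMGCS1 was higher in October by log2 differences of 0.74 (SE 0.053, limma adjusted p = 4.05e-11) in secondary males, 0.48 (SE 0.053, limma adjusted p = 7.55e-08) in secondary females, 1.00 (SE 0.053, limma adjusted p = 2.28e-13) in primary males and 1.12 (SE 0.053, limma adjusted p = 5.28e-14) in primary females. LSS had 0.46 in secondary males, 0.24 in secondary females, 1.22 in primary males and 0.83 in primary females. MVD had 0.51, 0.41, 1.07 and 0.90 in the same order of groups, and MSMO1 0.37, 0.41, 0.98 and 0.73. All 4 of these enzymes had smaller October differences in either secondary group than in both primary groups, and the interaction of follicle type and month was called for each of them in males and for HMGCS1, LSS and MVD in females, with -0.32, not called, for MSMO1. DHCR7 had its largest difference in secondary males, 1.04 (SE 0.068, limma adjusted p = 1.14e-11), with 0.35 in secondary females, 0.46 in primary males and 0.82 in primary females. SQLE ranged from 0.28 in secondary females to 0.89 in primary males. FDFT1 ranged from 0.25 in secondary males to 0.78 in primary males, FDPS from 0.15 in secondary females to 0.72 in primary females, and NSDHL from 0.17 in secondary females to 0.68 in primary females. ACAT2 was called in primary females, at 0.56, and the other comparisons gave 0.07 to 0.14. MVK was called in 3 comparisons, with 0.40 in secondary males, 0.77 in primary males and 0.82 in primary females. EBP and HSD17B7 were called in primary cells of both sexes, EBP at 0.31 in males and 0.36 in females and HSD17B7 at 0.40 and 0.43. Their secondary differences, from -0.01 to 0.11, were not called. SC5D was called higher in 3 comparisons, at up to 0.59 in secondary females. Against this direction, PMVK was lower in secondary males (-0.33), secondary females (-0.34) and primary males (-0.48). TM7SF2 was lower in primary males, -1.25 (SE 0.082, limma adjusted p = 1.1e-11), and higher in secondary males (0.45), secondary females (1.06) and primary females (0.65).

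Among the sensors INSIG1 was higher in October in primary males, 1.44 (SE 0.099, limma adjusted p = 2.62e-11), primary females, 1.05 (SE 0.099, limma adjusted p = 1e-08), and secondary females, 0.54 (SE 0.099, limma adjusted p = 8.77e-05), and lower in secondary males, -0.50 (SE 0.099, limma adjusted p = 0.000172). SCAP had log2 differences of -0.49 in secondary males, -0.59 in secondary females, -0.29 in primary males and -0.42 in primary females. SREBF2 was called lower in secondary males (-0.20) and higher in primary males (0.46), and its differences of -0.01 in secondary and 0.02 in primary females were not called. INSIG2 was higher in secondary females (0.39) and primary males (0.18) and lower in primary females (-0.19). NPC2 was lower in October in secondary males, -0.88 (SE 0.047, limma adjusted p = 3.32e-13), in primary males, -1.01 (SE 0.047, limma adjusted p = 2.62e-14), and in primary females, -0.20. ABCA1 was lower in primary females, -0.83 (SE 0.081, limma adjusted p = 1.63e-08), and higher in secondary males (0.69), secondary females (0.46) and primary males (0.35). NPC1 was higher in secondary females (0.32) and lower in the other 3 comparisons, at -0.42 in primary females, -0.24 in primary males and -0.19 in secondary males. SOAT1 differed by between -0.31 in secondary males and -0.18 in primary females. Markers of dividing cells had 0 of 12 higher and 12 lower in secondary males and 0 of 12 higher and 12 lower in secondary females, but 12 of 12 higher and 0 lower in primary males and 12 of 12 higher and 0 lower in primary females, so the enzymes called higher in October stood beside lower dividing-cell markers in secondary cells and beside higher ones in primary cells. Keratinocyte markers had 7 of 10 higher and 2 lower in secondary males, 9 of 10 higher and 1 lower in secondary females, 6 of 10 higher and 0 lower in primary males and 9 of 10 higher and 0 lower in primary females. Fibroblast markers had 3 of 8 higher and 4 lower in secondary males, 6 of 8 higher and 1 lower in secondary females, 4 of 8 higher and 2 lower in primary males and 1 of 8 higher and 7 lower in primary females, and markers of pericytes and smooth muscle had 0 of 6 higher and 6 lower in primary males. Adipocyte markers had 0 of 3 higher and 2 lower in secondary males and in secondary females, and 0 of 3 higher and 1 lower in primary males and in primary females. The share of the summed values taken by the 13 mitochondrial genes moved with the month: it was 9.55 to 10.3% in October and 8.72 to 9.35% in June in secondary males, and 11.2 to 12.7% and 8.89 to 9.45% in secondary females. Primary females had 10.3 to 10.8% in October and 9.14 to 9.75% in June, while in primary males 9.37 to 9.72% in October overlapped 8.9 to 9.48% in June. The part of the markers and of the mitochondrial share was not tested.

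Some of the smaller month differences lost their call when a library was left out or a setting was changed. NSDHL in secondary males lost its limma call without secondary June male 1 or secondary October male 3 (0.15 to 0.16, adjusted p = 0.0538 to 0.065) and with libraries rescaled to a common total (0.08, adjusted p = 0.226). SREBF2 in secondary males lost its limma call without secondary June male 3 (-0.16, adjusted p = 0.0557). FDPS in secondary females lost its limma call without secondary June female 1 or 2 or secondary October female 2 (0.11 to 0.14, adjusted p = 0.0545 to 0.114). NSDHL in secondary females lost its limma call without secondary June female 1 or secondary October female 1 (0.15 to 0.16, adjusted p = 0.0589 to 0.0671). SOAT1 in secondary females lost its limma call without secondary June female 1 or 3 or secondary October female 2 or 3 (-0.20 to -0.16, adjusted p = 0.058 to 0.102) and with libraries rescaled to a common total (-0.18, adjusted p = 0.0607). INSIG2 in primary males lost its limma call without primary June male 1 or primary October male 2 (0.14 to 0.17, adjusted p = 0.0556 to 0.105). SOAT1 in primary males lost its limma call with libraries rescaled to a common total (-0.16, adjusted p = 0.0829). SOAT1 in primary females lost its limma call without primary June female 1 or 2 or primary October female 1 or 3 (-0.18 to -0.11, adjusted p = 0.0761 to 0.23), with no filter on low values (-0.18, adjusted p = 0.0744), with libraries rescaled to a common total (-0.16, adjusted p = 0.0948) and with the compared groups alone (-0.18, adjusted p = 0.138). INSIG2 in primary females lost its limma call without primary June female 2 or primary October female 3 (-0.17 to -0.13, adjusted p = 0.0668 to 0.115) and with the compared groups alone (-0.19, adjusted p = 0.0962).

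**Figure D4:**
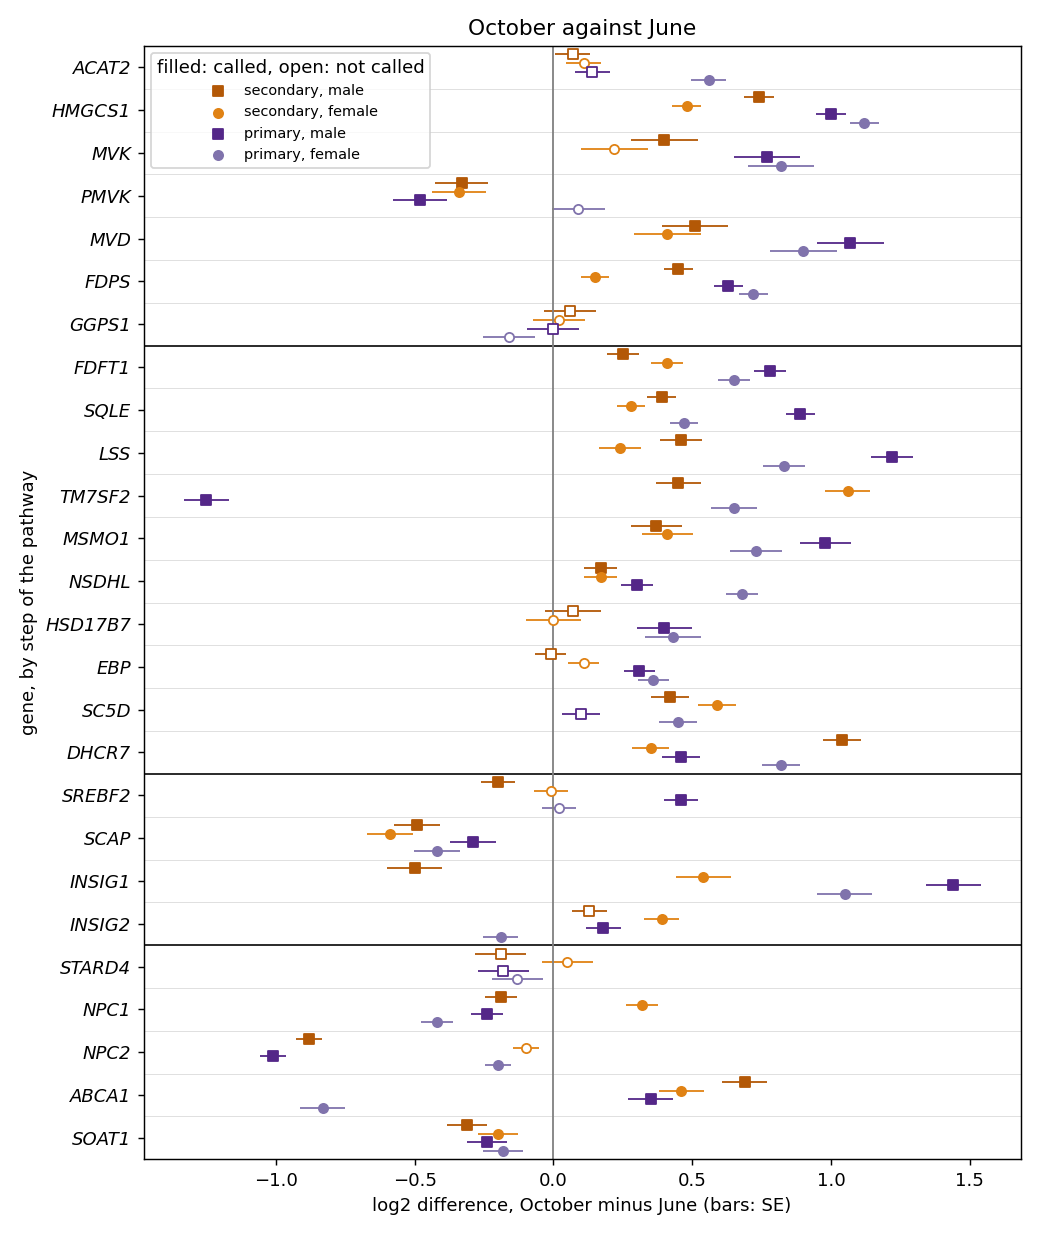
Log2 difference of October minus June (x axis, log2(value + 1) scale, bars give the SE) for the 26 genes (y axis, by step of the pathway) in each follicle type and sex; filled points passed the limma test and open points did not. Most enzyme points lie right of 0, TM7SF2 of primary males lies at -1.25, SCAP and SOAT1 lie left of 0 in all 4 comparisons, and INSIG1 lies left of 0 in secondary males alone.

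Whether the month difference depended on sex was tested as the male difference minus the female difference. In secondary cells 3 of the 26 genes were positive and 5 negative, where 17.3% and 20.4% of all genes were, or 11.7% and 29.5% with libraries rescaled to a common total; after rescaling the list had 2 and 10. In primary cells 6 were positive and 7 negative, where 17.7% and 19.1% of all genes were, or 22.1% and 14.3% with libraries rescaled to a common total. The rescaled counts of the list in primary cells were 8 and 7. INSIG1 led in secondary cells, at -1.04 (SE 0.14, limma adjusted p = 2.7e-06), followed by NPC2, -0.78 (SE 0.067, limma adjusted p = 3.17e-09), and DHCR7, 0.68 (SE 0.097, limma adjusted p = 5.36e-06). In primary cells TM7SF2 led, at -1.90 (SE 0.12, limma adjusted p = 6.29e-12), followed by ABCA1, 1.18 (SE 0.11, limma adjusted p = 1.94e-08), and NPC2, -0.82 (SE 0.067, limma adjusted p = 1.21e-09). Of the 17 enzymes 7 were called in neither follicle type, namely MVK, MVD, GGPS1, FDFT1, MSMO1, HSD17B7 and EBP. The share of all genes called in neither was not counted, so this is not read as a trait of the enzymes.

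Males had less RNA of most cholesterol enzymes than females in all 4 combinations of follicle type and month. These comparisons were added after the values had been seen. Of the 26 genes 2 were called higher and 21 lower in males in secondary October cells, with a median log2 difference of -0.34, where 19.5% of all genes tested were called higher and 20.9% lower, or 15% and 26.4% with libraries rescaled to a common total. Rescaled, the list had 2 higher and 22 lower in these cells. In primary October cells 1 was higher and 20 were lower, with a median of -0.71, where 15.8% of all genes tested were called higher and 17.8% lower, and 2 were higher without primary October female 3. In secondary June cells 4 were higher and 16 lower, with a median of -0.30, where 20.9% of all genes tested were called higher and 18.6% lower, or 27.3% and 13.2% with libraries rescaled to a common total. The list after rescaling had 4 higher and 15 lower in secondary June cells. In primary June cells 3 were higher and 19 lower, with a median of -0.45, where 23.1% of all genes tested were called higher and 22.3% lower. Lower in males in all 4 were ACAT2, HMGCS1, MVD, FDPS, FDFT1, SQLE, LSS, MSMO1, NSDHL, HSD17B7, EBP and STARD4. Such shared calls were not counted among all genes tested. SQLE was lower by log2 differences of -0.46 (SE 0.051, limma adjusted p = 1.4e-07) in secondary October cells, -0.87 (SE 0.051, limma adjusted p = 3.9e-12) in primary October cells, -0.57 (SE 0.051, limma adjusted p = 6.17e-09) in secondary June cells and -1.29 (SE 0.051, limma adjusted p = 1.64e-15) in primary June cells. MSMO1 had -0.66, -1.00, -0.61 and -1.25 in the same order of groups. HMGCS1 had -0.45, -1.01, -0.71 and -0.89, and FDPS had -0.33, -1.11, -0.63 and -1.01. All 4 enzymes had smaller differences between the sexes in either secondary comparison than in both primary ones. The interaction of follicle type and sex was called for SQLE and FDPS in both months, for HMGCS1 in October and for MSMO1 in June, while HMGCS1 in June (0.18) and MSMO1 in October (0.34) were not called. Of the sensors, INSIG1 was lower in males in secondary October cells (-0.87), primary October cells (-1.00) and primary June cells, -1.39 (SE 0.099, limma adjusted p = 6.54e-11), and had 0.17, not called, in secondary June cells. SREBF2 was lower in males in secondary October cells, -0.19, primary October cells, -0.73, and primary June cells, -1.17 (SE 0.061, limma adjusted p = 2.92e-13). Higher in males were ABCA1 in secondary October (0.53), primary October (0.34) and secondary June cells (0.30), TM7SF2 and PMVK in primary June cells (0.68 and 0.37), SCAP in both secondary comparisons (0.32 in October and 0.22 in June), NPC2 in both June comparisons (0.30 in secondary and 0.17 in primary cells) and NPC1 in secondary June cells (0.27). ABCA1 was lower in males in primary June cells, at -0.85 (SE 0.081, limma adjusted p = 1.06e-08). Markers of dividing cells had 6 of 12 higher and 1 lower in males in secondary October cells, 0 of 12 higher and 10 lower in primary October cells, 0 of 12 higher and 2 lower in secondary June cells and 0 of 12 higher and 10 lower in primary June cells. Keratinocyte markers had 1 of 10 higher and 8 lower, 6 of 10 higher and 0 lower, 3 of 10 higher and 2 lower and 9 of 10 higher and 0 lower in the same order. Fibroblast markers had 2 of 8 higher and 5 lower, 3 of 8 higher and 2 lower, 3 of 8 higher and 5 lower and 1 of 8 higher and 6 lower, and markers of pericytes and smooth muscle 4 of 6 higher and 1 lower, 2 of 6 higher and 3 lower, 2 of 6 higher and 1 lower and 6 of 6 higher and 0 lower, again in that order. The mitochondrial share given above was lower in males than in females without overlap in October, in both follicle types, and overlapped between the sexes in June. The part of these measures in the result was not tested.

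Several of the smaller differences between the sexes lost their call when a library was left out or a setting was changed. PMVK in secondary October cells lost its limma call without secondary October female 1 or secondary October male 2 or 3 (-0.25 to -0.21, adjusted p = 0.0787 to 0.121). SOAT1 in secondary October cells lost its limma call without secondary October female 1 or secondary October male 1 (-0.17 to -0.13, adjusted p = 0.118 to 0.182) and with the compared groups alone (-0.21, adjusted p = 0.0623). SREBF2 in secondary October cells lost its limma call without secondary October female 2 or 3 or secondary October male 2 (-0.18 to -0.16, adjusted p = 0.0503 to 0.0735). HSD17B7 in secondary October cells lost its limma call without secondary October female 3 (-0.21, adjusted p = 0.129). MVD in secondary October cells lost its limma call without secondary October male 2 (-0.32, adjusted p = 0.0525). MVK in primary October cells lost its limma call without primary October female 1 or 3 (-0.34 to -0.29, adjusted p = 0.062 to 0.0845). SCAP in secondary June cells lost its limma call without secondary June female 1 or 2 or 3 or secondary June male 2 or 3 (0.18 to 0.23, adjusted p = 0.0734 to 0.15), with no filter on low values (0.22, adjusted p = 0.0807) and with median-of-ratios factors (0.20, adjusted p = 0.0602). PMVK in secondary June cells lost its limma call without secondary June female 2 or 3 or secondary June male 2 (-0.28 to -0.25, adjusted p = 0.0541 to 0.0771). STARD4 in secondary June cells lost its limma call without secondary June female 2 or 3 or secondary June male 3 (-0.25 to -0.22, adjusted p = 0.0653 to 0.105) and with libraries rescaled to a common total (-0.22, adjusted p = 0.0878). MVK in secondary June cells lost its limma call without secondary June female 3 or secondary June male 1 (-0.33 to -0.28, adjusted p = 0.0598 to 0.0949). MVK in primary June cells lost its limma call without primary June female 3 or primary June male 3 (-0.28 to -0.27, adjusted p = 0.103 to 0.113) and with no filter on low values (-0.34, adjusted p = 0.059).

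**Figure D5:**
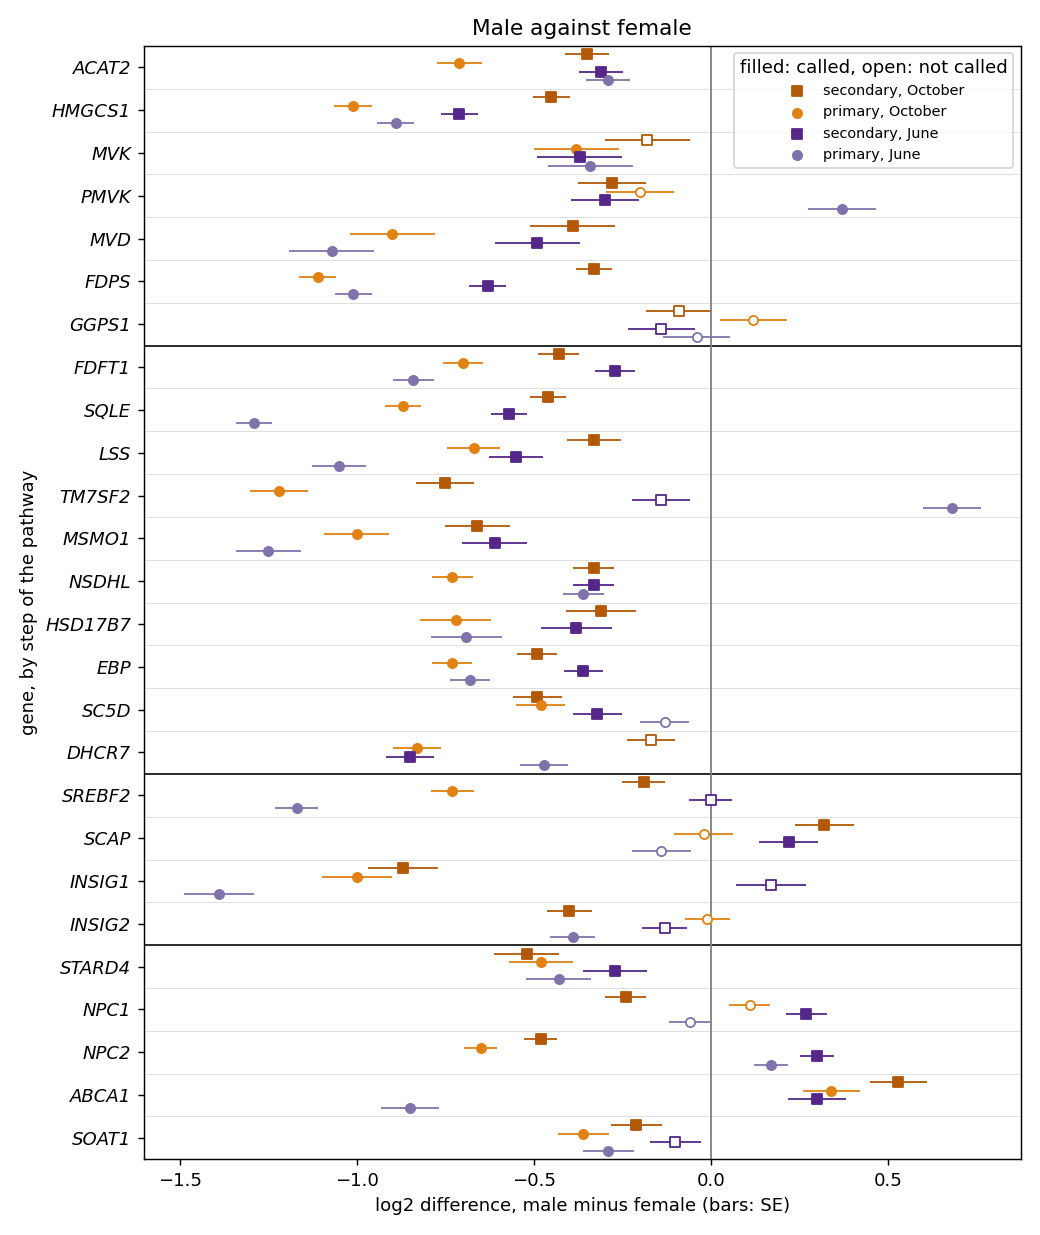
Log2 difference of males minus females (x axis, log2(value + 1) scale, bars give the SE) for the 26 genes (y axis, by step of the pathway) in each follicle type and month; filled points passed the limma test and open points did not. Nearly all enzyme points lie left of 0, with SQLE of primary June cells at -1.29, and TM7SF2 of primary June cells lies right of 0 at 0.68.

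A further 34 genes of sterol uptake, processing, oxysterol making and side branches were counted beside the list, 29 of them tested, and they were called in both directions. Between follicle types in June 9 were called higher and 5 lower in secondary males, with a median log2 difference of 0.07, and 9 and 5 in secondary females, with a median of -0.02. All genes had 30.7% higher and 28.9% lower in those males and 25% and 24.3% in those females. In October the counts were 6 and 4 in males and 6 and 6 in females, beside 10.9% and 7.63% of all genes in males and 18.3% and 17.2% in females. Between months 7 were higher and 15 lower in October in secondary males, 7 and 9 in secondary females, 11 and 12 in primary males, and 6 and 11 in primary females. Of all genes 25.3% were higher and 31.2% lower in secondary males, 24.2% and 27.1% in secondary females, 26% and 29.5% in primary males, and 22.7% and 25.6% in primary females. AACS, which makes acetoacetyl-CoA from ketone bodies for lipid synthesis, was higher in secondary June males, by a log2 difference of 1.54 (SE 0.062, limma adjusted p = 1.47e-15), with values of 31, 35.1 and 35.3 in secondary and 10.5, 11.3 and 11.2 in primary libraries. In June females the difference was 0.76 (SE 0.062, limma adjusted p = 8.02e-10). VLDLR, a receptor for very-low-density lipoprotein, was lower in secondary June cells by a log2 difference of -1.16 (SE 0.052, limma adjusted p = 8.09e-15) in males and -1.24 (SE 0.052, limma adjusted p = 5.14e-15) in females, and lower in October than in June in primary females by a log2 difference of -2.06 (SE 0.052, limma adjusted p = 8.67e-19). Its primary female values were 10.2, 10.6 and 9.92 in October and 44.6, 45.4 and 48 in June. CH25H, which makes an oxysterol that restrains cholesterol synthesis, was lower in October in all 4 comparisons, with a log2 difference of -2.06 (SE 0.043, limma adjusted p = 3.24e-20) in secondary females, whose values were 82.2, 83.7 and 87.1 in October and 364, 360 and 340 in June. The difference was -1.46 in secondary males, -1.91 in primary males and -0.81 in primary females. MYLIP, a ubiquitin ligase that liver X receptors raise and that removes lipoprotein receptors, had the direction of ABCA1 between follicle types of June females, at -1.23 (SE 0.059, limma adjusted p = 5.68e-14), and between months of primary females, at -1.04 (SE 0.059, limma adjusted p = 1.53e-12). In primary males MYLIP was higher in October, at 0.74, as was ABCA1, at 0.35, and in October females it was higher in secondary cells (0.44) while ABCA1 was lower (-0.54).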

How the data were processed

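Per the labels' protocols, total RNA of papilla cells was extracted with RNAiso Plus and sequenced as paired-end NEBNext Ultra libraries. The submitters' processing notes name kallisto 0.46.1, which assigns reads to transcripts, and sleuth 0.30.0, with no role or order. No genome build or transcript set is given in the sources used here. Deposited values are a signal normalised by the authors, with 1 value per gene and library, not counts, and totals near 1000000 per library do not show the depth, which is unknown. Symbols were used as deposited, and 20288 of 20326 gene IDs had the same symbol in the RefSeq table of assembly ARS1.2, used for names only.

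The test covered 13049 genes, those reaching 1 in 3 or more of the 24 libraries. On log2(value + 1), which understates changes of low genes, limma 3.58.1 (R 4.3.3, statmod 1.5.0) fitted a mean for each of the 8 groups with a variance trend and robust estimation, and all 24 libraries share its spread. P-values were adjusted by Benjamini-Hochberg over every gene tested, with calls made under 0.05, and the procedure was tested on simulated data. Had the values been counts, a count model was to be used. There were 14 comparisons: follicle type, month and their interactions with each other and with sex. A further 4, males against females, were added after the values had been seen. The genes, the other pathway and marker lists and the tests were chosen with earlier results of these data known. All members are named, and values in every library are given for the 12 with the largest span, the 2 with the smallest and the sensors; of the other pathway genes, up to 4 per kind of comparison with the largest called differences and a mean of at least 5 could be named, and some of these are not reported here. Alternatives were other filters, pseudocount, scalings, spread estimates, a fit to the compared groups, single libraries left out and a replicate block.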

Additional observations from a re-analysis of the deposited data

Results flagged for a closer look

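For 8 of the 26 genes, effects in 2 groups differed by the limma interaction test and either had opposite called directions or lay at least 1 log2 unit apart. This rule was not applied to all genes tested, so the count is not read as a trait of the list. In the sentences that follow, each difference is on the log2(value + 1) scale. Between follicle types, secondary minus primary, 6 results differed with month. In females FDPS had a difference of -0.24 in October and 0.34 in June, -0.58 apart (limma adjusted p = 1.19e-06). DHCR7 had a difference of -0.19 in October and 0.28 in June, -0.47 apart (limma adjusted p = 0.000457). In the same females NPC1 had a difference of 0.26 in October and -0.48 in June, 0.74 apart (limma adjusted p = 1.6e-07). ABCA1 had a difference of -0.54 in October and -1.83 in June, 1.29 apart (limma adjusted p = 4.58e-09). In males TM7SF2 had a difference of 0.17 in October and -1.52 in June, 1.70 apart (limma adjusted p = 4.78e-11). INSIG1 had a difference of 0.30 in October and 2.24 in June, -1.94 apart (limma adjusted p = 1.28e-10). DHCR7 in October females lost its limma call without secondary October female 1 or 2 or primary October female 1 or 3 (-0.19 to -0.14, adjusted p = 0.0726 to 0.165), with no filter on low values (-0.19, adjusted p = 0.0601) and with the compared groups alone (-0.19, adjusted p = 0.163). NPC1 in October females lost its limma call with the compared groups alone (0.26, adjusted p = 0.0697). INSIG1 in October males lost its limma call without secondary October male 1 or 2 or 3 or primary October male 1 or 2 or 3 (0.27 to 0.33, adjusted p = 0.0526 to 0.122), with no filter on low values (0.30, adjusted p = 0.0873) and with libraries rescaled to a common total (0.22, adjusted p = 0.109).

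Between follicle types, the sexes also differed. In October FDPS had a difference of 0.54 in males and -0.24 in females, 0.78 apart (limma adjusted p = 2.06e-08). DHCR7 had a difference of 0.47 in males and -0.19 in females, 0.66 apart (limma adjusted p = 1.36e-05). SREBF2 had a difference of 0.34 in males and -0.19 in females, 0.53 apart (limma adjusted p = 5.38e-05). In June SREBF2 had a difference of 1.00 in males and -0.16 in females, 1.16 apart (limma adjusted p = 2.49e-10). INSIG1 had a difference of 2.24 in males and 0.69 in females, 1.56 apart (limma adjusted p = 5.52e-09). ABCA1 had a difference of -0.69 in males and -1.83 in females, 1.14 apart (limma adjusted p = 3.26e-08). SREBF2 in October females lost its limma call without secondary October female 1 or primary October female 3 (-0.16 to -0.13, adjusted p = 0.0798 to 0.114) and with the compared groups alone (-0.19, adjusted p = 0.119). SREBF2 in June females lost its limma call without secondary June female 1 or 2 or primary June female 3 (-0.15 to -0.11, adjusted p = 0.088 to 0.178) and with no filter on low values (-0.16, adjusted p = 0.0535). DHCR7 in October females is described above.

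For the month, October minus June, the sexes differed in secondary cells for INSIG1 and NPC1. There INSIG1 had a difference of -0.50 in males and 0.54 in females, -1.04 apart (limma adjusted p = 2.7e-06). NPC1 had a difference of -0.19 in males and 0.32 in females, -0.52 apart (limma adjusted p = 2.51e-05). In primary cells TM7SF2 had a difference of -1.25 in males and 0.65 in females, -1.90 apart (limma adjusted p = 6.29e-12). INSIG2 had a difference of 0.18 in males and -0.19 in females, 0.38 apart (limma adjusted p = 0.00215). ABCA1 had a difference of 0.35 in males and -0.83 in females, 1.18 apart (limma adjusted p = 1.94e-08). INSIG2 in primary males lost its limma call without primary June male 1 or primary October male 2 (0.14 to 0.17, adjusted p = 0.0556 to 0.105). INSIG2 in primary females lost its limma call without primary June female 2 or primary October female 3 (-0.17 to -0.13, adjusted p = 0.0668 to 0.115) and with the compared groups alone (-0.19, adjusted p = 0.0962). Each group of 3 libraries enters several of these interactions, so they are not independent of each other.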

How the results depend on the processing

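Without a filter, with a value of 1 needed in 6 libraries, with a pseudocount of 0.1, with a spread not estimated robustly, with median-of-ratios factors and with the replicate number as a block, each count of called genes stayed within 1.5 times of the one reported. No called gene changed direction under any alternative run. With every library rescaled to a common total of 1000000, 3 genes were lower in secondary June males, the interaction of follicle type and month in males had 2 positive and 15 negative genes, that of follicle type and sex in October 8 positive ones, and that of month and sex in secondary cells 10 negative ones. Rescaling put the median of all genes at -0.17, against -0.01 as reported, in the male interaction of follicle type and month, and at -0.12, against -0.02, in the secondary interaction of month and sex, and left it within 0.09 of 0 in the other comparisons. With the compared groups alone, 2 genes were higher and 3 lower between follicle types in October females. Leaving out each library in turn gave 3 to 7 higher and 3 to 6 lower there, 9 to 14 positive interactions of follicle type and sex in October, and 1 to 2 genes higher in males in primary October cells. The causes were not tested.

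Deviations from the group mean correlated with a median r of 0.0335 between libraries of the same replicate number. They ranged from -0.281 to 0.348, with 25 of 84 pairs over 0.1. Between libraries of different numbers the median r was -0.0167, from -0.405 to 0.512, with 33 of 168 pairs over 0.1. Whether a shared number pairs the libraries was not tested further. With the replicate block, 462 of the 468 single-gene results kept their side of the threshold and 6 passed it newly. The planned description of promoter motifs, with its longer window as the alternative, was not run, since no promoter sequence was used here. The reads behind a value are unknown, so the precision rests on 3 libraries a group.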
